A study of Mus musculus with 12 samples.

Results

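All-trans retinoic acid (RA) is made from vitamin A (retinol) in steps and is then destroyed by the cells that respond to it. Rdh10 oxidizes retinol to retinal, Dhrs3 and Rdh11 can reduce retinal back to retinol, the retinal dehydrogenases Aldh1a1, Aldh1a2 and Aldh1a3 oxidize retinal to RA, and the P450 enzymes Cyp26a1, Cyp26b1 and Cyp26c1 hydroxylate RA towards inactive products. In the embryonic brain these enzymes shape where RA acts, and Cyp26a1 and Dhrs3 are textbook RA-induced genes through which RA limits its own level. These 9 genes were selected by symbol from the 57010 genes of a count table of NE-4C cells, and their levels were followed with and without RA in WT cells and in cells lacking Faf2.

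NE-4C is a mouse neural progenitor line from embryonic day 9 brain, and all groups share its loss of p53. Groups were untreated WT cells (WT NO), untreated Faf2 KO cells (KO NO), and the same genotypes given 1 µM RA for 24 h, moved to basal medium and collected at day 3 (WT RA, KO RA), with 3 cultures from separate passages in each group and 12 libraries in all. Faf2 encodes a protein of the endoplasmic reticulum that takes part in the disposal of misfolded proteins, and the KO is a CRISPR/Cas9 deletion of exon 4 in cells grown from a picked colony after puromycin selection, so that genotype and line cannot be told apart. Untreated cells were collected at day 0, so RA and time in culture cannot be told apart, and RA-treated cells were read after RA had been washed out.

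Library totals ran from 17370069 to 30738717 counts. Faf2 itself lay at 36.0 to 50.0 CPM (counts scaled to a common library size) in WT NO, 35.1 to 49.1 CPM in WT RA, 21.0 to 25.4 CPM in KO NO and 18.7 to 36.1 CPM in KO RA, so the KO RA and WT RA ranges overlapped, and a transcript without exon 4 can still be counted. KO RA replicate 3 stood apart: its scaling factor was 0.394 against 0.872 to 1.28 in the other 11 libraries, and its genes deviated from those of its fellow replicates by a median of 1.20 on the log2 scale, against 0.188 to 0.664. Calls of the enzyme genes are therefore given with and without it. The 7 neural progenitor markers checked (Nes, Sox2, Pax6, Otx2, Cdh2, Sox1 and Msi1) summed to 280.5 to 335.04 CPM in WT NO, 312 to 339 CPM in WT RA, 266 to 307 CPM in KO NO and 181 to 392 CPM in KO RA. After RA in KO 3 of 7 (Nes, Cdh2 and Sox1) were higher, against 3.89% of all genes, and Pax6 was lower in KO than in WT both untreated and after RA. Without KO RA replicate 3, 4 were higher and 1 lower after RA in KO (16.0% of all genes called). In that fit 4 were higher and 1 lower in KO RA than in WT RA (9.85%). It also called 4 as higher for the difference of the RA response, KO minus WT (1.34%). The 7 mesenchyme markers summed to 43.0 to 66.3 CPM in WT NO, 97.7 to 206 CPM in WT RA, 42.8 to 44.8 CPM in KO NO (Col1a1 at the floor) and 153 to 847 CPM in KO RA, with 3 of 7 higher after RA in WT (0.321% of all genes) and 4 of 7 in KO (3.89% of all genes). The 4 endothelial markers summed to 0.563 to 2.81 CPM in WT NO, 1.29 to 2.23 CPM in WT RA, 1.07 to 2.01 CPM in KO NO and 4.16 to 12.6 CPM in KO RA, where 2 of the 3 tested were higher than in KO NO (3.89% of all genes). The 7 neuron markers summed to 78.2 to 110.4 CPM in WT NO, 139.7 to 161 CPM in WT RA, 70.2 to 88.4 CPM in KO NO and 145 to 205 CPM in KO RA. Of these, 0 were called after RA in WT and 2 were higher in KO (3.89% of all genes). Without KO RA replicate 3, 2 neuron markers were higher and 1 lower in WT, and 3 were higher in KO. Mesenchyme markers then had 4 higher in WT and 5 in KO, and endothelial markers 1 and 3 (10.8% and 16.0% of all genes called). After RA the neuron and mesenchyme sums were higher without overlap in both genotypes, and the endothelial sum in KO only. The progenitor sums overlapped between RA and NO in both genotypes. The part of these markers in the RA responses below was not tested.

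The sequence upstream of Cyp26a1 is shown because this was the gene of the 9 with the largest log2 fold change after RA in KO, and because its upstream region held the arrangement that RA receptors are known to bind. RA receptors bind paired copies of a short DNA word, often as direct repeats 5 bases apart. In GRCm39, both strands of the 2000 bases ahead of each canonical transcript were searched for words of 6 letters, the consensus AGGTCA or its relatives AGTTCA (used by the proximal repeat below), GGGTCA (used by the distal repeat below) and the similar word GGTTCA, where any of these was followed after 5 bases by any of them. Of the 9 enzyme genes 1, Cyp26a1, held a match, as did 161 of 21664 protein-coding genes of the table (0.743%). The searched words include those known from Cyp26a1 itself, so its match is a description and no contrast with other genes is drawn from it. It held 2, which are given here with the words in capitals, each on its own strand.
Cyp26a1 distal repeat, chr19:37684357-37684373, gene strand: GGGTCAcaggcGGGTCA
Cyp26a1 proximal repeat, chr19:37686224-37686240, opposite strand: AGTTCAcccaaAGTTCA
The 300 bases next to the start (chr19:37685941-37686240, plus strand) follow, 5′ to 3′, with the proximal repeat in capitals at the 3′ end, read here on the gene's strand.
Cyp26a1 upstream: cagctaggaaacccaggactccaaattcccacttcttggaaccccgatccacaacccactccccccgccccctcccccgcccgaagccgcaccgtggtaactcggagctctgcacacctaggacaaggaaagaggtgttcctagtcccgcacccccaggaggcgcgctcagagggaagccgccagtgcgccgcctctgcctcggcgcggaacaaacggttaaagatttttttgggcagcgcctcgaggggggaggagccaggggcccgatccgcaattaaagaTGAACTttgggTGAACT

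The proximal repeat lay 17 to 1 bases and the distal repeat 1884 to 1868 bases upstream of the annotated start of Cyp26a1 (chr19:37686241-37689984, plus strand). Cyp26c1 (chr19:37674029-37684073) is its upstream neighbour on the same strand, and the distal repeat fell in the 2167 bases between them. These matches describe the letters of the reference only. A gene without a match has no such words in its window, which says nothing about receptor binding elsewhere.

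**Figure D1:**
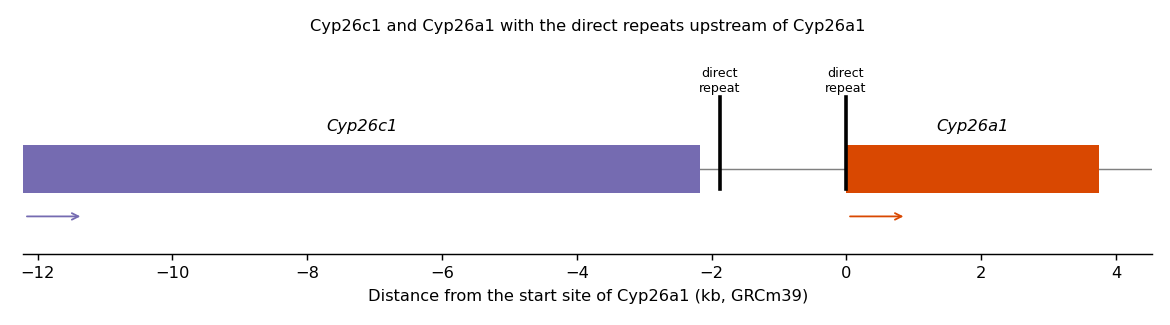
Map of Cyp26c1 and Cyp26a1 drawn to scale, with distance from the Cyp26a1 start in kb on the horizontal axis, arrows for the direction of transcription and vertical lines for the direct repeats. The proximal repeat abuts the start of Cyp26a1, and the distal one, 1884 to 1868 bases upstream, lies between the genes.

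The other 7 enzyme genes, all protein-coding, lie on other chromosomes or far from this pair in GRCm39: Cyp26b1 at chr6:84548396-84570890 (minus strand), Aldh1a1 at chr19:20469539-20622825 (plus), Aldh1a2 at chr9:71122630-71203527 (plus), Aldh1a3 at chr7:66040638-66077850 (minus), Rdh10 at chr1:16175555-16203958 (plus), Rdh11 at chr12:79220408-79239067 (minus) and Dhrs3 at chr4:144619245-144654779 (plus). The deposited table is labelled as scaled counts, and its values fell with gene length as counts scaled from TPM would: in 3851 genes above 0 in only 1 library, the median value was 10.2 in the shortest of 5 length classes and 0.806 in the longest (Spearman's rho across genes -0.685). Levels were set side by side between genes on that reading, which no source used here states. In WT NO the order by mean CPM was Rdh10, Rdh11, Dhrs3, Aldh1a3, Cyp26a1, Aldh1a2, Aldh1a1, Cyp26b1 and Cyp26c1. The first 3 were apart from each other and from all below them in every library, whereas the ranges of Aldh1a3, Cyp26a1, Aldh1a2 and Aldh1a1 overlapped from neighbour to neighbour. In KO NO Rdh11 led, and Dhrs3 and Rdh10 overlapped behind it. In KO RA Cyp26a1 stood beside Rdh11, overlapping it and above Dhrs3 in all 3 libraries, whereas in WT RA it stood below Dhrs3 in all 3.

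**Figure D2:**
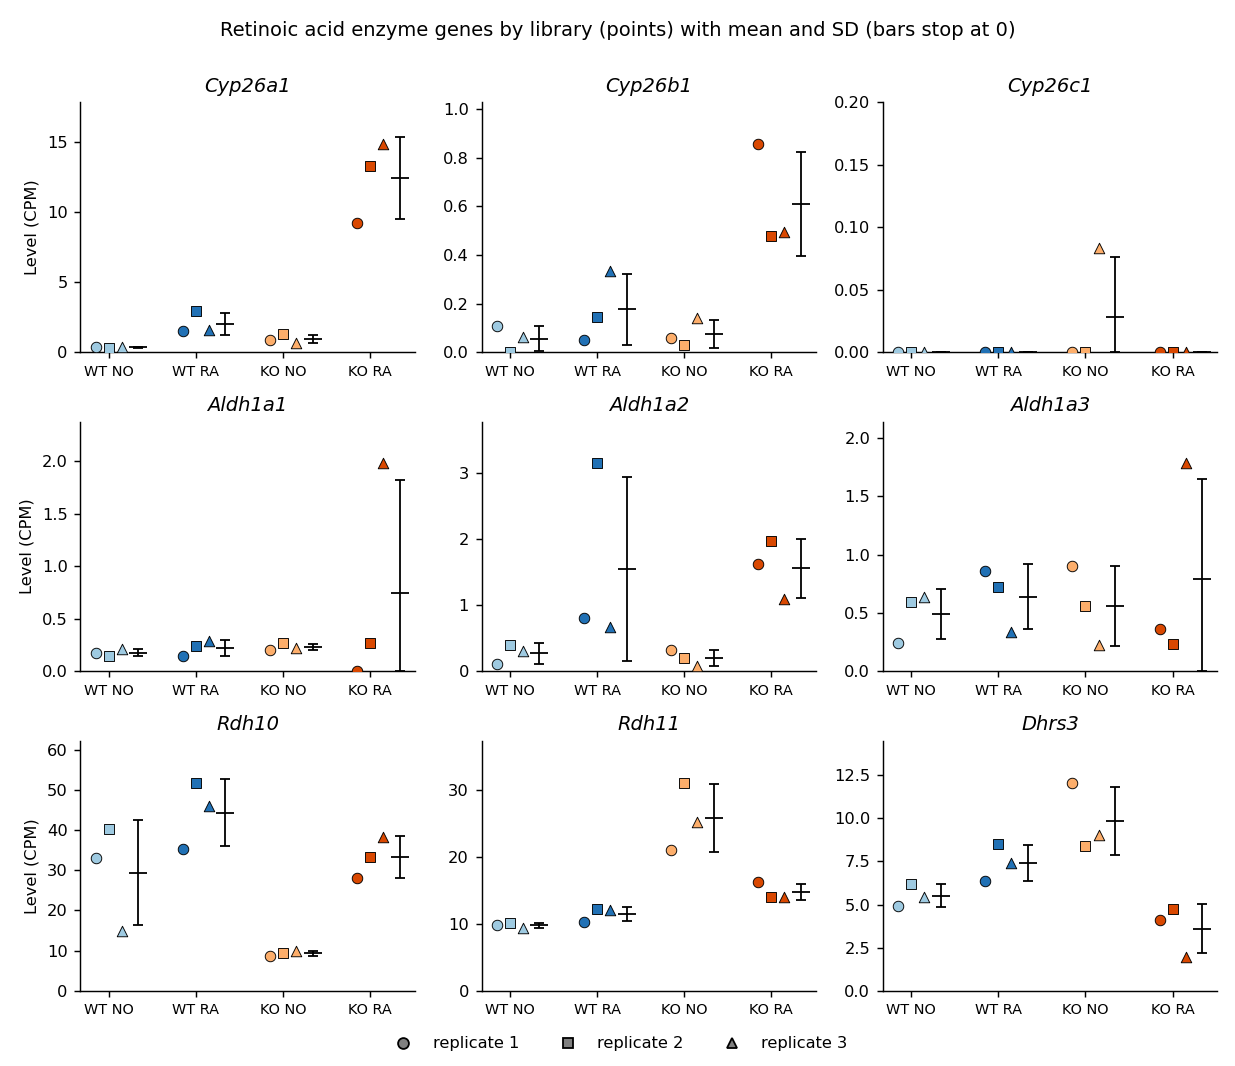
Level in CPM (vertical axis, linear, own scale in each panel) of each enzyme gene in every library, with the group's mean and SD (n = 3) as bars that stop at 0. Cyp26a1 reached 9.21 to 14.9 CPM in KO RA and at most 2.91 CPM elsewhere, and Dhrs3 was lowest in KO RA.

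The first comparison asked how the enzymes changed after RA in WT cells. Of the 9 genes, 6 passed the filter on low counts and were tested, and 1, Cyp26a1, was called at an adjusted p under 0.05 by edgeR's quasi-likelihood test, against a background of 0.406% of 16502 genes called in either direction (0.321% higher, 0.0848% lower). Without KO RA replicate 3, 7 genes were tested, as the filter then let in Cyp26b1, and again 1 was called, against 10.8% of all genes. In 4 of the 6 tested genes the WT RA and WT NO libraries did not overlap, against 29.1% of all genes.

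Cyp26a1, the main RA-degrading enzyme of early embryos, lay at 0.387, 0.296 and 0.366 CPM in WT NO replicates 1 to 3, from 8.19 to 11.9 deposited counts each. In WT RA it lay at 1.49, 2.91 and 1.58 CPM. All WT RA libraries were above all WT NO libraries, by a log2 fold change of 2.49 (SE 0.39), or 5.62-fold with a 95% interval of 3.11 to 10.2, at an edgeR adjusted p of 0.0339 (0.0049 without KO RA replicate 3). The call was lost when any of 10 libraries was left out in turn, with log2 fold changes between 2.11 and 2.66 throughout and an adjusted p of up to 0.136 (without WT NO replicate 1), and held without KO RA replicate 1 or 3. Those 10 fits called few genes at all, from 0 of 17328 (without WT NO replicate 1) to 27 of 17226 (without KO RA replicate 2).

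Aldh1a2, the RA-synthesizing enzyme on which early embryos chiefly depend, lay at 0.106, 0.407 and 0.305 CPM in WT NO and at 0.817, 3.15 and 0.669 CPM in WT RA. The groups did not overlap, and replicate 2 was the high library of WT RA. The WT NO baseline was low, at 2.62 to 10.6 deposited counts, with 1 library at or under the floor of 3 counts. The log2 fold change of 2.48 (SE 0.76) did not pass the test, at an edgeR adjusted p of 0.206 (0.0593 without KO RA replicate 3). Without WT RA replicate 2 it was 1.43.

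Retinol and retinal converting enzymes gave smaller differences in WT. Rdh10 lay at 33.0, 40.3 and 14.9 CPM in WT NO and at 35.2, 51.7 and 46.0 CPM in WT RA, with a log2 fold change of 0.59 (SE 0.32, 95% interval -0.11 to 1.29, edgeR adjusted p 0.498). Rdh11 lay at 9.79, 10.2 and 9.34 CPM against 10.29, 12.17 and 12.04 CPM, a log2 difference of 0.23 (SE 0.20, edgeR adjusted p 0.713). Dhrs3 lay at 4.90, 6.21 and 5.46 CPM against 6.39, 8.49 and 7.41 CPM, a log2 difference of 0.43 (SE 0.31, edgeR adjusted p 0.642). Rdh11 and Dhrs3 had no overlap between the groups, but neither passed the test, and none of the 3 was called without KO RA replicate 3. Without the TMM scaling factors the groups of Rdh11 and of Dhrs3 overlapped, so their separation depends on the scaling.

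The same question in Faf2 KO cells gave 4 called genes of the 6 tested, Cyp26a1 and Rdh10 higher and Rdh11 and Dhrs3 lower after RA. The background was 5.48% of 16502 genes called (3.89% higher and 1.59% lower). With KO RA replicate 3 left out, 5 of 7 tested genes were called, with Aldh1a2 added to the calls, against 16.0% of all genes. The filter of that fit passed 17327 genes, with Cyp26b1 among them. Cyp26b1 had its highest deposited counts in KO RA replicates 1 and 2 (18.7 and 14.4). Its test for a rise in KO RA is therefore not independent of that filter. Groups did not overlap in 5 of the 6 genes, against 30.2% of all genes. The median log2 fold change was 1.12 over these 6 genes and 0.11 over all genes, and DESeq2's size factors moved the latter to 0.19. The values of the 6 genes ran from -1.43 (Dhrs3) to 3.72 (Cyp26a1), so their median does not describe a shared direction.

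Cyp26a1 lay at 0.879, 1.27 and 0.670 CPM in KO NO and at 9.21, 13.3 and 14.9 CPM in KO RA, the latter from 150.2 to 389.98 deposited counts. Each KO RA library was far above each KO NO library, by a log2 fold change of 3.72 (SE 0.39), or 13.2-fold with a 95% interval of 7.33 to 23.7, at an edgeR adjusted p of 0.0006. Without KO RA replicate 3 the log2 fold change was 3.57 (edgeR adjusted p 0.0005), and the call held with each of the 12 libraries left out. This was the highest level of the 3 breakdown enzymes in any group. The repeats shown above describe the reference sequence, and their part in this level was not tested.

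Cyp26b1, a breakdown enzyme known from hindbrain and limb, did not pass the filter of the edgeR fit. It lay at 0.858, 0.477 and 0.496 CPM in KO RA, from 5.03 to 18.7 deposited counts, and at 0.0586, 0.0296 and 0.140 CPM in KO NO. It reached 0.0481, 0.145 and 0.334 CPM in WT RA and at most 0.106 CPM in WT NO. A floor of 3 counts, taken on the rounded deposited values, corresponded to 0.0838 to 0.297 CPM depending on the library. If these values are scaled from TPM, they are not numbers of reads. Cyp26b1 was at or under the floor in 3 WT NO, 2 WT RA and 2 KO NO libraries and in no KO RA library. All 3 KO RA libraries were above all others in scaled CPM. Without the TMM scaling factors, KO RA replicate 3 (0.195 CPM) was below WT RA replicate 3 (0.298 CPM). In fits that included it, the log2 fold change in KO was 3.06 by DESeq2, which called it (adjusted p 0.0358), 2.88 by edgeR without the filter (adjusted p 0.236) and 3.04 by edgeR without KO RA replicate 3 (adjusted p 0.104), so the call depends on the tool. Cyp26c1 was at 0 in 11 of the 12 libraries and at 2.79 deposited counts in KO NO replicate 3, so it was not detected above the floor in any library.

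Aldh1a2 lay at 0.322, 0.207 and 0.0838 CPM in KO NO and at 1.63, 1.98 and 1.09 CPM in KO RA, again without overlap. KO NO held 3.48 to 11.4 deposited counts, with 1 library at or under the floor, so the fold rests on a low baseline. The filter counts libraries of any group, so Aldh1a2 could pass it through its RA libraries. The log2 fold change of 2.92 (SE 0.77) came close to the threshold, at an edgeR adjusted p of 0.0526, and was 3.10 without KO RA replicate 3 (edgeR adjusted p 0.0264). The other retinal dehydrogenases stayed low. Aldh1a1, which did not pass the filter, lay at 0.205, 0.267 and 0.223 CPM in KO NO and at 0, 0.273 and 1.98 CPM in KO RA, where replicate 3 was the high library, and at 0.144 to 0.287 CPM over the 6 WT libraries. Aldh1a3 lay at 0.908, 0.563 and 0.223 CPM in KO NO and at 0.361, 0.238 and 1.78 CPM in KO RA. Its log2 difference of 0.42 (SE 0.83) changed sign to -0.92 without KO RA replicate 3, and its WT libraries ran from 0.247 to 0.865 CPM. It was called in none of the 5 comparisons.

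Rdh10, the enzyme of the first step of RA synthesis, lay at 8.70, 9.36 and 10.0 CPM in KO NO and at 28.1, 33.4 and 38.4 CPM in KO RA. All RA-treated libraries were higher, by a log2 fold change of 1.83 (SE 0.33), or 3.55-fold with a 95% interval of 2.15 to 5.86, at an edgeR adjusted p of 0.0110 (log2 fold change 1.71 and adjusted p 0.0066 without KO RA replicate 3). The call was lost when KO NO replicate 1, 2 or 3 was left out, with an adjusted p of up to 0.0661 (without KO NO replicate 1).

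Rdh11 and Dhrs3, which reduce retinal, moved the other way in KO. Rdh11 lay at 21.1, 31.1 and 25.2 CPM in KO NO and at 16.2, 14.1 and 14.1 CPM in KO RA. All KO RA libraries were lower, with a log2 fold change of -0.80 (SE 0.20, edgeR adjusted p 0.0413) and of -0.78 without KO RA replicate 3 (edgeR adjusted p 0.0141). This call held in only 2 of the 12 fits that left a library out (KO RA replicate 3 and WT NO replicate 3), and the log2 fold changes of the 12 fits lay between -0.91 and -0.66. It was also lost without the filter (edgeR adjusted p 0.0956), with the replicate block (0.0880) and with only the KO libraries in the fit (0.239).

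Dhrs3, a retinal reductase that RA is known to induce in embryos, lay at 12.1, 8.41 and 9.05 CPM in KO NO and at 4.11, 4.74 and 1.98 CPM in KO RA. No KO RA library reached a KO NO library, and replicate 3 was lowest. The log2 fold change was -1.43 (SE 0.31, 95% interval -2.11 to -0.74, edgeR adjusted p 0.0256), and -1.16 without KO RA replicate 3 (edgeR adjusted p 0.0070). The call was lost without any of the KO NO replicates and with only the KO libraries in the fit (edgeR adjusted p 0.169).

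**Figure D3:**
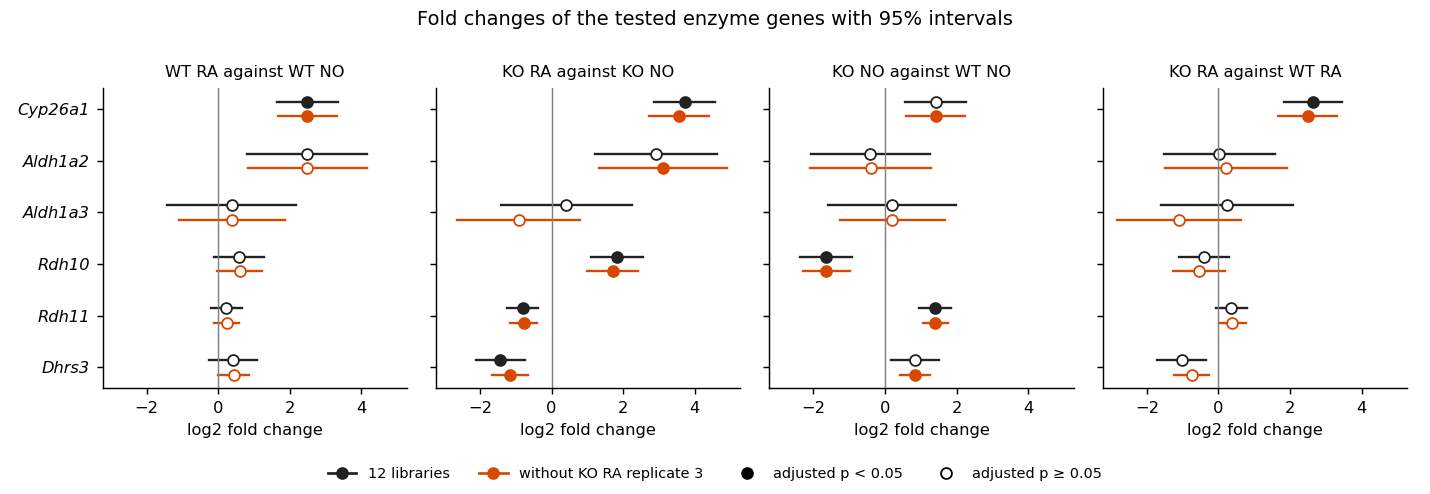
Log2 fold change (horizontal axis) of the 6 tested enzyme genes in 4 comparisons with 95% intervals, from all 12 libraries (black) and without KO RA replicate 3 (orange), where filled points have an adjusted p under 0.05. Rdh11 and Dhrs3 lie right of 0 for RA in WT and left of 0 for RA in KO, and Aldh1a3 changes side without that library in KO RA against KO NO and in KO RA against WT RA.

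Whether the RA response itself differed between genotypes was tested as the difference of the log2 fold changes, KO minus WT. None of the 6 tested genes passed, and over all genes edgeR called 0.00% (0 of 16502, with 1423 at an unadjusted p under 0.05, while DESeq2 called 246 and limma-voom 1001). At an unadjusted p under 0.05 stood 4 of the 6: Cyp26a1 and Rdh10 above 0, Rdh11 and Dhrs3 below. In the fit that left out KO RA replicate 3, 1 of 7 tested genes, Dhrs3, passed, against 1.34% of all genes.

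For Cyp26a1 the difference was 1.23 (SE 0.53, 95% interval 0.07 to 2.38, edgeR adjusted p 0.555) and for Rdh10 it was 1.24 (SE 0.45, 95% interval 0.25 to 2.23, edgeR adjusted p 0.483). Among the alternatives only limma-voom called Rdh10 (1.41, limma-voom adjusted p 0.0162). For Rdh11 it was -1.04 (SE 0.28, 95% interval -1.66 to -0.42, edgeR adjusted p 0.350). For Dhrs3 it was -1.85 (SE 0.44, 95% interval -2.81 to -0.89, edgeR adjusted p 0.286), and -1.60 at an adjusted p of 0.0341 without KO RA replicate 3. For Aldh1a2 the interval of -1.83 to 2.70 takes in differences in both directions. The larger Cyp26a1 fold in KO is therefore not shown to differ from that in WT.

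Untreated KO and WT cells were compared next. In KO NO against WT NO, 2 of 6 tested genes were called, Rdh11 higher and Rdh10 lower, against 1.14% of all genes (0.788% higher, 0.351% lower). When KO RA replicate 3 was left out, 4 of 7 were called, with Cyp26a1 and Dhrs3 added as higher, against 8.78% of all genes. In 4 of the 6 the groups did not overlap, against 30.7% of all genes.

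Rdh11 was 2.64-fold higher in KO NO (95% interval 1.94 to 3.59), with a log2 fold change of 1.40 (SE 0.20, edgeR adjusted p 0.0093) and of 1.41 without KO RA replicate 3 (edgeR adjusted p 0.0010). Every KO NO library, at 21.1 CPM or more, was above every WT NO library, at 10.2 CPM or less, and the call was lost only without WT NO replicate 1, WT NO replicate 2 or KO NO replicate 2 (adjusted p up to 0.0572, without the last) among the fits that left a library out. Rdh10 had a log2 fold change of -1.65 (SE 0.33, edgeR adjusted p 0.0375), and of -1.64 without KO RA replicate 3 (edgeR adjusted p 0.0100). Its KO NO libraries, at 8.70 to 10.0 CPM, were all below WT NO, of which replicate 3 was the low library. The Rdh10 call held in 3 of the 12 fits that left a library out (WT NO replicate 3, KO RA replicate 1 and KO RA replicate 3), with log2 fold changes between -1.97 and -1.35 and an adjusted p of up to 0.198 (without KO NO replicate 1), and it was lost with the replicate block (edgeR adjusted p 0.0922).

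Cyp26a1 and Dhrs3 also had no overlap between untreated genotypes. Their log2 fold changes of 1.41 (SE 0.38, edgeR adjusted p 0.127) and 0.83 (SE 0.31, edgeR adjusted p 0.279) passed the test only without KO RA replicate 3 among the edgeR fits of this comparison (adjusted p 0.0423 and 0.0245). For Aldh1a2 and Aldh1a3 the ranges overlapped.

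After RA, Cyp26a1 was the only enzyme gene called between genotypes, 1 of 6 tested, against 1.24% of all genes (0.885% higher, 0.358% lower). Without KO RA replicate 3 it was 1 of 7, against 9.85% of all genes. Groups did not overlap in 3 of the 6 (Cyp26a1, Rdh11 and Dhrs3), against 20.9% of all genes. Without the TMM scaling factors only Cyp26a1 of these stayed apart. Rdh11 then lay at 5.53 to 20.7 CPM in KO RA and 8.97 to 12.4 CPM in WT RA. Dhrs3 lay at 0.779 to 5.80 CPM in KO RA and 5.57 to 8.62 CPM in WT RA. Cyp26a1 was 6.23-fold higher in KO RA than in WT RA (95% interval 3.56 to 10.9), with a log2 fold change of 2.64 (SE 0.37, edgeR adjusted p 0.0097) and of 2.49 without KO RA replicate 3 (edgeR adjusted p 0.0043). The call was lost without WT RA replicate 1 or 3, and with only the RA libraries in the fit (edgeR adjusted p 0.0928).

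The other enzymes did not pass the test between RA-treated genotypes. Dhrs3 had a log2 fold change of -1.02 (SE 0.31, edgeR adjusted p 0.140), and -0.75 without KO RA replicate 3 (edgeR adjusted p 0.0574). Its KO RA libraries were all below its WT RA libraries only with the TMM scaling factors. For Rdh10 the value was -0.42 (95% interval -1.11 to 0.28), for Rdh11 it was 0.36 (95% interval -0.07 to 0.80) and for Aldh1a2 it was 0.03 (95% interval -1.53 to 1.58).

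A ratio within a library does not depend on scaling between libraries. Rdh10 over Dhrs3, a ratio of the enzymes that drive retinol and retinal in opposite directions, was chosen after the values were seen. It was 0.721, 1.11 and 1.10 in KO NO, against 6.76, 6.50 and 2.74 in WT NO, 5.50, 6.10 and 6.20 in WT RA, and 6.82, 7.02 and 19.3 in KO RA. The 3 KO NO libraries were below the other 9, and KO RA replicate 3 was the highest of all. On the log2 scale the ratio was -0.06 ± 0.36 in KO NO, 2.30 ± 0.74 in WT NO, 2.57 ± 0.09 in WT RA and 3.28 ± 0.86 in KO RA (SD, n = 3). No test was run on a ratio chosen in this way.

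Summed over the family, Cyp26 transcripts lay at 0.405 ± 0.100 CPM in WT NO, 2.17 ± 0.791 CPM in WT RA, 1.04 ± 0.225 CPM in KO NO and 13.1 ± 2.72 CPM in KO RA (SD, n = 3). Aldh1a transcripts summed to 0.945 ± 0.361, 2.41 ± 1.50, 1.00 ± 0.454 and 3.11 ± 1.53 CPM in the same groups. The Aldh1a ranges of WT RA and KO RA overlapped, whereas the lowest Cyp26 sum of KO RA, 10.1 CPM, was above the highest of WT RA, 3.06 CPM. As bulk values, these sums cannot tell more RNA per cell from more cells that carry it.

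**Figure D4:**
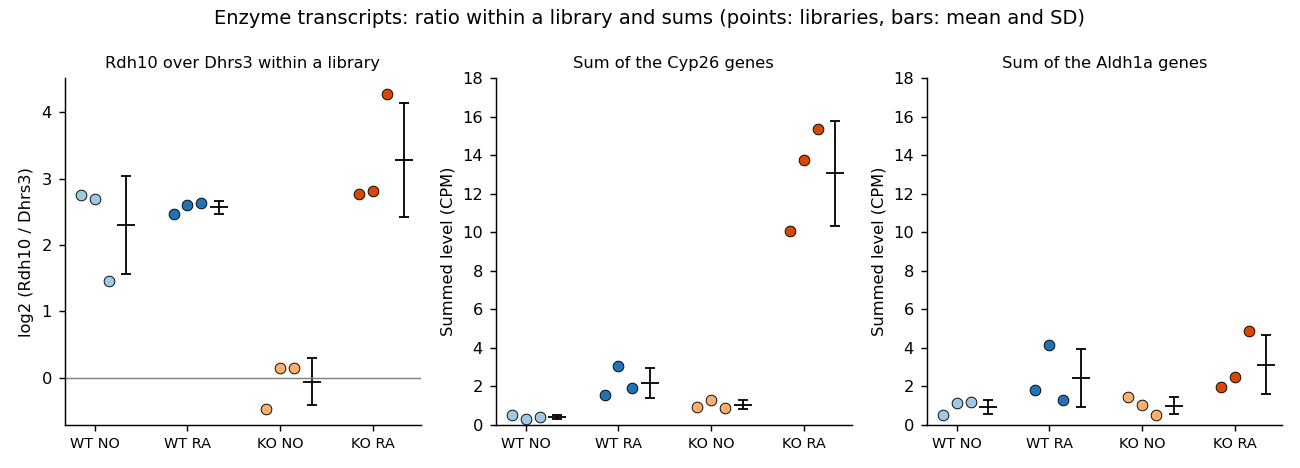
Left, log2 ratio of Rdh10 to Dhrs3 within each library, and middle and right, summed CPM of the 3 Cyp26 and 3 Aldh1a genes on the same linear axis, with points for libraries and bars for mean and SD (n = 3). KO NO stands near 0 in the ratio (-0.06 ± 0.36), and only KO RA has Cyp26 sums of 10.1 CPM or more.

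Other genes of retinoid metabolism were counted by lists. Of 25 further retinoid enzymes, 12 were tested and 0 were called by edgeR in any of the 5 comparisons. Without KO RA replicate 3, 2 were higher and 1 lower after RA in WT, and 0 higher and 2 lower in KO, beside 10.8% and 16.0% of all genes called, so the KO share is near that of all genes. Of these enzymes, 2 in WT and 2 in KO that missed the threshold are given as values. Cyp1b1, a P450 that can oxidize retinol, had a log2 difference of 2.01 after RA in WT (edgeR adjusted p 0.173), Rdh12, a retinal reductase, -2.62 in WT (edgeR adjusted p 0.310), Rdh13 -0.73 in KO (edgeR adjusted p 0.0583) and Rdh5 1.62 in KO (edgeR adjusted p 0.164). All 13 receptors and cofactors were tested and 0 were called with all 12 libraries. Without KO RA replicate 3, 1 was higher and 1 lower after RA in WT, and 1 was higher in KO (10.8% and 16.0% of all genes called). Rarb, an RA receptor that RA induces, had log2 differences of 1.95 in WT (edgeR adjusted p 0.111) and 1.50 in KO (edgeR adjusted p 0.0824).

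Of 12 binding and uptake genes, 8 were tested. After RA 1 was lower in WT (0.0848% of all genes), and 3 were higher and 1 lower in KO (3.89% and 1.59%), while without KO RA replicate 3 the WT counts were 2 higher and 1 lower and the KO counts 3 and 1 (10.8% and 16.0% of all genes called). These genes had median log2 fold changes of 0.22 in WT and 1.08 in KO, beside -0.01 and 0.11 over all genes. Stra6, the receptor that takes up retinol from its carrier protein, had group means of 0.760 CPM in WT NO, 6.85 CPM in WT RA, 0.230 CPM in KO NO and 12.01 CPM in KO RA, with a log2 fold change of 5.68 in KO (edgeR adjusted p 0.0047) and 3.15 in WT (edgeR adjusted p 0.0992). Crabp1, which binds RA in the cytoplasm, went from 0.832 to 33.5 CPM in KO, a log2 fold change of 5.32 (edgeR adjusted p 0.0062), and had means of 0.689 and 8.33 CPM in WT, where 3.57 missed the threshold (edgeR adjusted p 0.0850).

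Crabp2, which carries RA to its receptors, went from 12.4 to 64.4 CPM in KO, a log2 fold change of 2.38 (edgeR adjusted p 0.0087), with 39.9 and 46.5 CPM in WT and a log2 difference of 0.22 (edgeR adjusted p 0.892). Lrp2, an endocytic receptor that takes up retinol with its carrier, was lower after RA in both genotypes, with log2 fold changes of -1.87 in WT (edgeR adjusted p 0.0369) and -1.51 in KO (edgeR adjusted p 0.0219).

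Of 15 known RA target genes, 13 were tested, with 1 higher after RA in WT (0.321% of all genes) and 4 higher in KO (3.89%), and median log2 fold changes of 1.21 and 1.50. With KO RA replicate 3 left out, the counts were 3 in WT and 7 in KO, where 10.8% and 16.0% of all genes were called. Hoxb2, a hindbrain patterning gene, had group means of 0.116 CPM in WT NO, 5.14 CPM in WT RA, 0.0685 CPM in KO NO and 3.27 CPM in KO RA, with log2 fold changes of 5.43 in WT (edgeR adjusted p 0.0339) and 5.49 in KO (edgeR adjusted p 0.0070). Hoxa2, of the same class, was called in KO at 4.37 (edgeR adjusted p 0.0332) and had 5.08 in WT (edgeR adjusted p 0.0793). Meis1, a cofactor of Hox proteins, went from 3.05 to 41.7 CPM in KO, a log2 fold change of 3.77 (edgeR adjusted p 0.0040), and had 1.37 in WT (edgeR adjusted p 0.255). The last of the 4 was Crabp2. The calls of these 7 genes after RA in KO, and of Lrp2 and Hoxb2 in WT, held without KO RA replicate 3. None of the genes on these 4 lists was called for the difference between genotypes in the RA response, nor between KO and WT at either state, in the fit of all 12 libraries. Without KO RA replicate 3, 0 were called for that difference (1.34% of all genes). Untreated KO then had 2 receptor or cofactor genes lower, 2 binding genes lower, and 2 target genes higher and 1 lower (8.78%). After RA, KO had 2 receptor or cofactor genes lower, 1 binding gene higher and 1 lower, and 2 target genes higher (9.85%). Of the further enzymes, 1 was higher and 2 lower after RA. A gene can stand on more than 1 list.

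**Figure D5:**
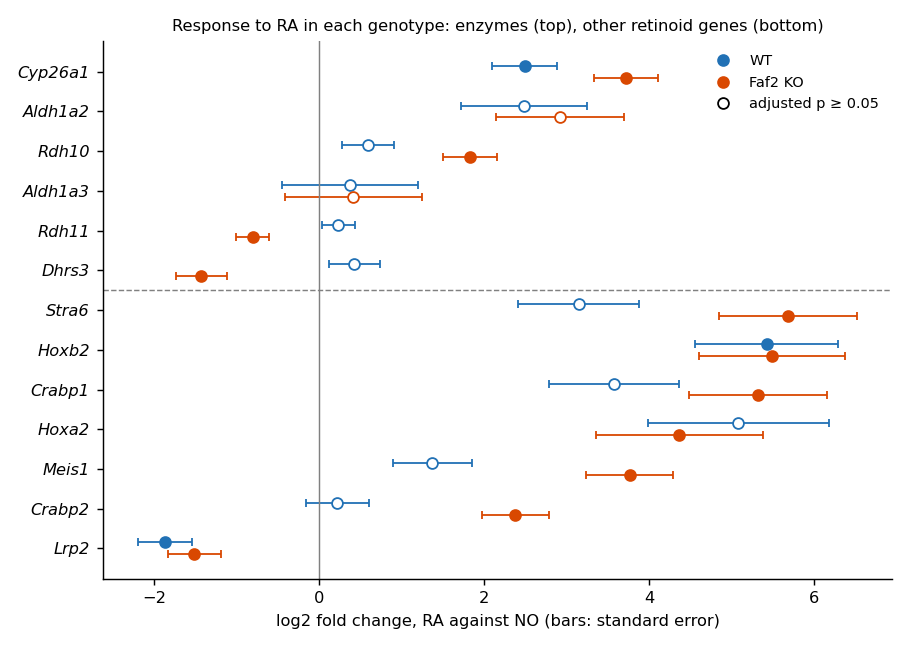
Log2 fold change after RA (horizontal axis, bars for the standard error) in WT (blue) and KO (orange) for the 6 tested enzyme genes above the dashed line and the 7 called genes of the retinoid lists below it, where open points have an adjusted p of 0.05 or more. Hoxb2 and Lrp2 are filled in both genotypes, and Crabp2 stands at 0.22 in WT and 2.38 in KO.

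For the 4 enzyme genes called after RA, the genes with the most similar pattern were ranked by Pearson's r of log2 CPM over the 12 libraries, among 16502 tested genes and as a description. For Cyp26a1 they were Prnp (0.980), Calcrl (0.975) and Anxa6 (0.969). For Rdh10 they were Sim1 (0.968), Srgap3 (0.946) and Mir670hg (0.930). For Rdh11 they were Fut4 (0.934), Zfp74 (0.919) and Ticam2 (0.912), and for Dhrs3 they were Card10 (0.961), Brca1 (0.944) and Slc23a2 (0.944). Without KO RA replicate 3 these r stood between 0.872 and 0.986. All these values share the same libraries and 4 groups.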

How the data were processed

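Poly(A) RNA libraries of 12 NE-4C cultures were sequenced, and the authors ran nf-core/rnaseq (STAR and Salmon) on GRCm39. The deposited values are estimated counts per gene, labelled scaled counts, and their fall with gene length matches a rescaling of TPM values to the depth of the library, though that step is not given in the sources used here. Counts were rounded and analysed with edgeR 4.0.16 (filterByExpr, TMM, robust quasi-likelihood fit of all 4 groups, Benjamini-Hochberg adjustment over 16502 genes, called at 0.05, no fold limit) in R 4.3.3. Levels are CPM with TMM factors. The floor of 3 counts applies to the rounded deposited values, which edgeR treated as counts, and covers no spread between cultures. If the values are scaled from TPM, as read here, the floor does not measure read support. It then stands for more reads in longer genes. Alternatives were DESeq2 1.42.0, its size factors in edgeR, limma-voom (limma 3.58.1), no filter, only the groups compared, a replicate block, each library left out, CPM without TMM, and repeats 2 bases apart. Positions and sequences came from the GRCm39 genome with GENCODE annotation. Groups were taken from the sample labels. The named genes are the 9 enzymes, the called genes of the 4 retinoid lists and the 3 most similar genes of each called enzyme, while other genes were named after their values were seen. The enzymes and lists were chosen with earlier results of these data known. P-values measure the spread between passages of 1 line per genotype.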

Additional observations from a re-analysis of the deposited data

Results flagged for a closer look

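In CPM with TMM factors, the RA responses of Rdh11 and Dhrs3 had opposite directions in the 2 genotypes. Every WT RA library was above every WT NO library, and every KO RA library was below every KO NO library. Without TMM factors the WT ranges overlapped. Rdh11 then lay at 10.1 to 11.3 CPM in WT NO and 8.97 to 12.4 CPM in WT RA, with means of 10.8 and 10.7 CPM. Dhrs3 lay at 5.05 to 6.67 and 5.57 to 8.62 CPM. The KO groups stayed apart. For Rdh11 the KO minus WT difference of log2 fold changes was -1.04 (unadjusted p 0.0034 and adjusted p 0.350 by edgeR), and -1.02 without KO RA replicate 3 (adjusted p 0.0637). For Dhrs3 it was -1.85 (unadjusted p 0.0013 and adjusted p 0.286 by edgeR), and -1.60 without that library (adjusted p 0.0341). Across the alternatives the adjusted p ran from 0.0320 to 0.741 for Rdh11 and from 0.0026 to 0.636 for Dhrs3, and the sign of both held in all of them. The WT part of both responses did not pass its own test. Mesenchyme and endothelial marker sums were highest in KO RA, and their part in these values was not tested.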

How the results depend on the processing

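Counts of called enzyme genes under the alternatives were as follows. With DESeq2's Wald test 2 were called for RA in WT, 6 for RA in KO (Cyp26b1 among them), 2 for the difference of RA responses and 2 between RA-treated genotypes, against 1, 4, 0 and 1 by edgeR, and limma-voom called 3 for the difference. For the difference these were Rdh11 and Dhrs3 by DESeq2, with Rdh10 added by limma-voom. Over all genes DESeq2 called 779 of 17195, 2506 of 17749, 246 of 16113 and 1217 of 17749, and limma-voom 1001 of 16502 for the difference. With only the libraries compared in the fit, 2 were called for RA in KO (4 with all libraries) and 0 between RA-treated genotypes (1). These fits called 196 of 15307 and 16 of 14865 genes. Leaving out each library in turn gave 0 to 1 for RA in WT, 1 to 5 for RA in KO, 0 to 1 for the difference, 0 to 4 between untreated genotypes and 0 to 1 between RA-treated genotypes. Of the 17160 to 17402 genes tested, the same fits called 0 to 1868, 194 to 2776, 0 to 232, 40 to 1521 and 19 to 1707. With the replicate block 0 were called for RA in WT and 1 between untreated genotypes (2 without it), and 3 were called for RA in KO (4 without it), while the other 2 counts were as without it. Over all genes the block fit called 10, 56 and 467 of 16502 in that order, against 67, 188 and 904 without the block. Same-numbered libraries of different groups correlated at -0.17 to 0.04 in their deviations from the group means, and 0 of 12 such pairs exceeded 0.1. No pairing by number was seen, but deviations from means of 3 libraries, with KO RA replicate 3 among them, cannot exclude it.

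Directions turned in low genes only, in results that no fit called. For Aldh1a3 the RA response in KO was -0.55 with limma-voom and -0.92 to 1.01 over the fits that left a library out. Its difference of RA responses was -0.030 without the filter, -1.15 with limma-voom, -0.15 with the replicate block and -1.30 to 0.64 with a library left out. Between untreated genotypes it ran from -0.33 to 0.57, and between RA-treated genotypes from -1.10 to 0.78, with -0.97 by limma-voom. Aldh1a2 between RA-treated genotypes was -0.0067 without the filter and -0.34 to 1.07 with a library left out. The cause was not tested. Levels of Aldh1a1 in KO NO (0.266 CPM), Rdh10 in KO NO (10.8 CPM) and Rdh11 in WT NO (10.8 CPM) moved by more than their SD without TMM factors. With repeats 2 bases apart, 0 of the 9 enzyme genes held a match, against 2.31% of protein-coding genes. Cyp26b1, Cyp26c1 and Aldh1a1 had low deposited counts, and the edgeR filter left them out with all 12 libraries. Whether depth or the scaling of the deposited values with gene length put them there was not tested. Fits without that filter or by DESeq2 included them and called none but Cyp26b1, by DESeq2 in KO.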
